A study of Mus musculus with 2 samples.

Results

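The genes described here are 51 named genes of the distal end of mouse chromosome 6, out of 38458 gene columns in the single-cell tables. They were chosen by position, as genes listed for the last 21 Mb of the chromosome, and the chromosome end itself was selected on measured values, since its genes had a high PD800 over PD100 ratio in these same 2 libraries. The ratios below are therefore a description, with no test. The listed genes run from Etv6 (start 134035700) to Bicd1 (end 149563329, GRCm38), a stretch of 15.5 Mb. All 51 are annotated as protein-coding, 29 on the plus strand and 22 on the minus strand. The tables hold 239 gene columns with a start in the same stretch, of which 79 had no unique molecular identifier (UMI) in the cells analysed. Of the 51 members, 37 had 50 or more UMIs over both libraries together, as did 6984 genes of the whole series, which are called the tested genes here. The other 14 members had fewer and are given separately.

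Single-cell RNA-sequencing was performed on Terc-/- mouse embryonic stem cells (mESCs) of the line DKO741, which lack the RNA template of telomerase. The line was made from E14 mESCs by exchanging both Terc alleles in turn with a targeting construct, and it is 1 of a pair of knock-out lines, so the values belong to a single line. The labels give the time points as passage 100 and 800, and the titles and the study as population doubling levels of the same numbers. PD100 cells had not yet turned to alternative lengthening of telomeres (ALT). PD800 cells were long-term survivors that relied on ALT. Both groups carry the Terc deletion, no wild-type library was analysed here, and the experiments of the study used cells grown without feeder cells. Each group is 1 library, so no replicate error exists, and passage and library preparation cannot be told apart.

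The cell filter of the study, at least 1000 UMIs and at most 20% mitochondrial UMIs, left 814 PD100 cells and 900 PD800 cells with 1826233 and 2580963 UMIs. Median depths were 2151 and 2701.5 UMIs per cell, and median mitochondrial shares 1.23% and 4.42%. Terc had 0 UMIs in both libraries, under a limit of 1.64 and 1.16 CPM (UMIs scaled to the same library total) that 3 counts would give, but its RNA has no poly(A) tail and such libraries would capture it poorly in any cell. All 10 embryonic stem cell markers, Pou5f1 and Nanog among them, were detected in both, at a summed 11903 CPM in PD100 and 12610 CPM in PD800. The 14 extraembryonic endoderm markers summed to 1123 CPM in PD100 and 155 CPM in PD800, where Gata6 and Srgn were at 0. The 8 fibroblast markers summed to 99.1 and 119 CPM, with Col1a1 and Lum at 0 in PD100 and Dcn at 0 in PD800. Cells whose endoderm markers took at least 1% of their UMIs numbered 33 in PD100 and 0 in PD800, and 8 cell barcodes occurred in both libraries.

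Genes toward a chromosome end keep their own promoters, and neighbours usually have unrelated functions. The members are spread over 15.5 Mb, and their distance from the telomere was not computed. By function the members are a mixed set. They include regulators of transcription and chromatin, such as the ETS factor Etv6 and the Mediator subunit Med21, the cell cycle inhibitor Cdkn1b, the Wnt co-receptor Lrp6, and the metabolic enzymes Ldhb and Bcat1. Telomeres cap the ends and shorten with division in cells without telomerase, unless a pathway such as ALT extends them. The tables hold RNA counts alone, and DNA copy number was not measured in them.

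Summed over all 51 members, PD100 held 3840 UMIs, or 2103 CPM (95% Poisson interval 2037 to 2170), and PD800 held 13109 UMIs, or 5079 CPM (4993 to 5167). The members thus took 0.210% of the UMIs of PD100 and 0.508% of those of PD800. Ratios are given as log2 of PD800 CPM over PD100 CPM. Relative ratios have the median of the tested genes, which was -0.34 on this scale, taken away, and 1 on the relative log2 scale is 2-fold. The summed members had a relative log2 ratio of 1.61 (95% interval 1.56 to 1.67). All intervals cover counting error only and are exact Poisson, binomial or conditional (Clopper-Pearson) intervals.

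The relative log2 ratio was above 0 for 45 of the 50 members that had one, with a median of 0.85, against a median of 0 over the tested genes by construction. By plain CPM, 40 of the 50 (80%) were higher in PD800, against 33.4% of the tested genes. The sets differ, since the tested genes all had 50 or more UMIs and the 50 members include genes with fewer. On the relative scale 23 of the 50 were at least 2-fold higher and 3 at least 2-fold lower, namely Plbd1, Crebl2 and Arntl2. Among the 37 members of 50 or more UMIs the median was 1.04, with quartiles of 0.55 and 1.69 and a range from 0.14 to 3.49. At least a 2-fold higher relative level in PD800 was found for 19 of these 37 and a 2-fold lower one for 0, where 13.9% of all tested genes were at least 2-fold higher and 7.79% at least 2-fold lower. The minimum of 50 UMIs is more easily passed by a gene that is high in 1 library, so the counts over the 37 describe those genes and not the whole list. By plain CPM, the level in PD800 exceeded that in PD100 for 34 of the 37, by 2-fold or more for 12, where 9.22% of the tested genes were at least 2-fold higher on that scale. Gpr19, Eps8 and Stk38l had relative log2 ratios of 0.30, 0.14 and 0.33 and were the 3 that were lower by plain CPM.

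**Figure D1:**
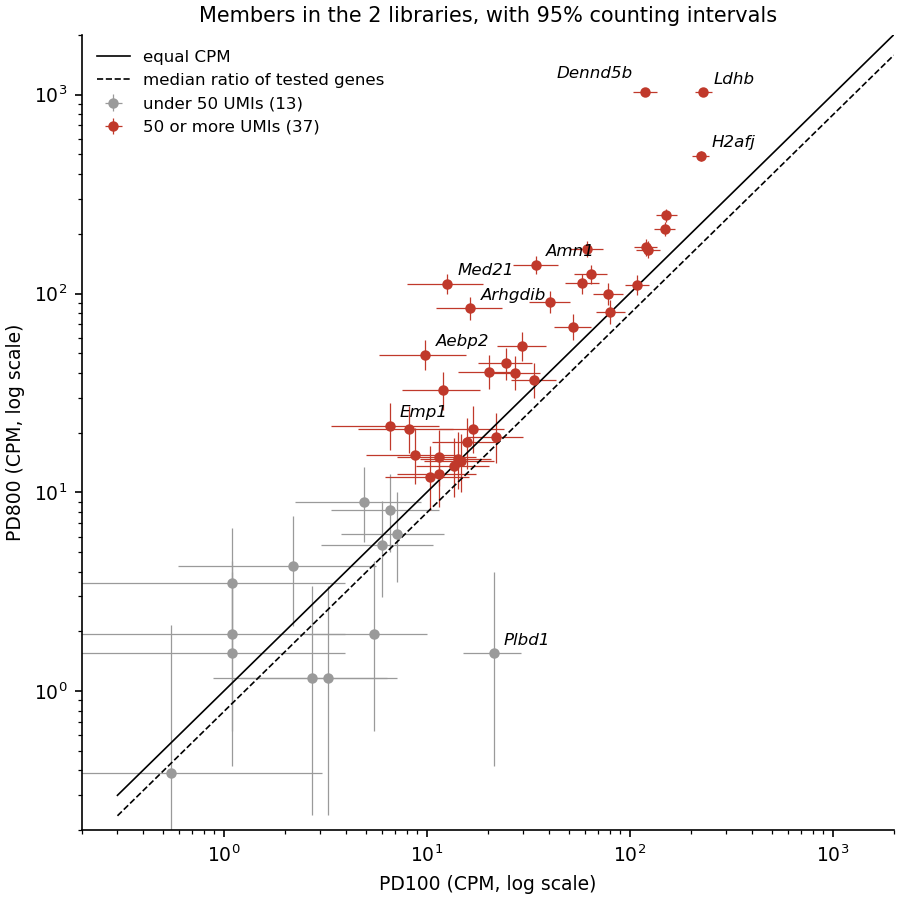
Level of each member in PD100 (x axis, CPM, log scale) against PD800 (y axis, CPM, log scale), 1 library each, with 95% counting intervals as bars; Sspn, at 0 UMIs in PD800, is left out. The solid line marks equal CPM and the dashed line the median ratio of the tested genes; Dennd5b and Ldhb sit farthest up at 1030 and 1028 CPM in PD800, and Plbd1 lies far below both lines.

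The members that regulate transcription or chromatin differed widely among themselves. Med21, a subunit of the Mediator complex that links transcription factors to RNA polymerase II, had 23 UMIs in PD100 (12.6 CPM) and 289 in PD800 (112 CPM). Its relative log2 ratio was 3.49 (2.88 to 4.17), 11.3-fold, which ranked 28 among the 6984 tested genes. Aebp2, a cofactor of Polycomb repressive complex 2, had 18 UMIs in PD100 (9.86 CPM) and 127 in PD800 (49.2 CPM), a relative log2 ratio of 2.66 (1.94 to 3.46). Both were well above the group's other members. H2afj, an H2A histone variant, had 409 and 1272 UMIs (224 and 493 CPM) and a relative log2 ratio of 1.48 (1.32 to 1.64). Its coding sequence is close to that of other H2A genes, so reads may have been split among them. Fam60a, a subunit of the Sin3 histone deacetylase complex, had 272 and 545 UMIs and a relative log2 ratio of 0.85 (0.63 to 1.06). Atf7ip, a partner of the histone methyltransferase Setdb1, had 29 and 46 UMIs, and its interval included 0 (0.51, -0.19 to 1.23). The factors with fewest UMIs showed no common direction. Etv6 had 12 UMIs before ALT and 21 in PD800, and its interval included 0 (0.65, -0.44 to 1.81). Arntl2, a clock factor of the Bmal family, had 10 and 5 UMIs (-1.16, -3.06 to 0.53), Crebl2 had 6 and 3, and the clock repressor Bhlhe41 had 1 UMI in each library. In all, 3 of the 5 members of this group with 50 or more UMIs were at least 2-fold higher in PD800, against 13.9% of all tested genes. The whole region was selected for high ratios, so counts by role cannot be read as a trait of that role.

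The promoters of the 3 members with the highest ratios by the near end of the interval, leaving out those that carry the repeat described further on, are shown because members that differ together between the libraries could be compared for shared promoter letters. The sequences are from RefSeq (GRCm38.p6), read 5′ to 3′ on the strand of the gene, from 250 bases before to 50 bases after the annotated start. Capitals mark the GC box GGGCGG, the CCAAT box and the TATA box TATAAA on either strand; overlapping matches on the 2 strands form 1 run of capitals. Med21 lies at chr6:146642329-146642628 (plus strand), Ldhb at chr6:142507908-142508207 (minus strand) and Arhgdib at chr6:136941850-136942149 (minus strand, 1 of 3 starts in the table).
Med21: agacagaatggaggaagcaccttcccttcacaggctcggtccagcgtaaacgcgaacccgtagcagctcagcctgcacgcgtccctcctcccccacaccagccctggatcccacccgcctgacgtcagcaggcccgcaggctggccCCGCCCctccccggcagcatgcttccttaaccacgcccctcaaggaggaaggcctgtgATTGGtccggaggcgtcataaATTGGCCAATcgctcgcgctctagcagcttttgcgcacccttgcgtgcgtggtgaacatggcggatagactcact
Ldhb: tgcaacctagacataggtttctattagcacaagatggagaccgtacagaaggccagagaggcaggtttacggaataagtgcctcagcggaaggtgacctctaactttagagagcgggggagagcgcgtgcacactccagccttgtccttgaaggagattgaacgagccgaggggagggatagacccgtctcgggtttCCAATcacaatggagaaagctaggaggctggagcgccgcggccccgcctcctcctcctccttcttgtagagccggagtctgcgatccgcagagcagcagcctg
Arhgdib: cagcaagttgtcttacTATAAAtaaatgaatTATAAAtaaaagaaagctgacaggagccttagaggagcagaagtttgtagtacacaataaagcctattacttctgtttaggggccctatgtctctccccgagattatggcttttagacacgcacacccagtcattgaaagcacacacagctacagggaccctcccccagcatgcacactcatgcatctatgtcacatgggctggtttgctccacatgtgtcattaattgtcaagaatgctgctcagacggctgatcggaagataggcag

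The 3 promoters had little in common by these letters. Med21 held 22 CG pairs, 1 GC box and 3 CCAAT boxes. Ldhb held 17 CG pairs, 1 CCAAT box and no GC box. Arhgdib held 4 CG pairs and 2 TATAAA matches. The table had promoters for 39 of the 51 members, 55 in all. A GC box was found in 60.0% of them, a CCAAT box in 38.2% and TATAAA in 3.64%. The shares over the 6735 promoters of tested genes were 66.0%, 39.2% and 6.68%, so the members' shares lay close to those of the genes expressed in these cells. The median number of CG pairs was 17 in the members' promoters, 19 in those of the tested members and 22 in those of the tested genes.

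Among the metabolic and mitochondrial members, 5 of 8 with 50 or more UMIs were at least 2-fold higher in PD800. This was 62.5%, against 51.4% of the 37 members and 13.9% of all tested genes. Ldhb, the heart-type subunit of lactate dehydrogenase, had 421 UMIs in PD100 (231 CPM) and 2654 in PD800 (1028 CPM). Its relative log2 ratio was 2.50 (2.35 to 2.65), 5.65-fold, and it made up 11% of all member UMIs in PD100 and 20.2% in PD800. Mrps35, a protein of the mitochondrial ribosome, had 277 and 637 UMIs (152 and 247 CPM) and a relative log2 ratio of 1.04 (0.84 to 1.25), just over 2-fold. Lyrm5, which encodes a regulator of the electron transfer flavoprotein, had 22 and 84 UMIs and a relative log2 ratio of 1.78 (1.08 to 2.52). Hebp1, a haem-binding protein, and Cmas, which activates sialic acid, had relative log2 ratios of 1.33 and 1.28. Bcat1, the cytosolic branched-chain aminotransferase, was closer to the median of the tested genes, with 96 UMIs in PD100 (52.6 CPM) and 176 in PD800 (68.2 CPM), a relative log2 ratio of 0.72 (0.35 to 1.09). Etnk1, an ethanolamine kinase, and Dera, which cleaves deoxyribose phosphate, were at 0.89 and 0.69. Mgst1, a microsomal glutathione transferase with 9 and 23 UMIs, was at 1.20, and Far2, a fatty acyl-CoA reductase with 2 and 9 UMIs, at 2.01 with an interval from -0.26 to 5.26.

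Plbd1, which encodes a phospholipase B-like protein, was the exception among the members. It had 39 UMIs in PD100 (21.4 CPM) and 4 in PD800 (1.55 CPM), a relative log2 ratio of -3.44 (-5.39 to -1.97), and was the sole member whose whole interval lay below 0. Of its 39 PD100 UMIs, 18 came from the 33 cells with a high share of endoderm markers, which held 4.01% of the UMIs of that library. Without those cells its relative log2 ratio was -2.62. With 43 UMIs it fell just under the minimum of 50, while Cdkn1b, at 50 UMIs, just met it.

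Members of cell cycle control and signalling spanned a wide range. Arhgdib, a gene best known from blood cells, had 30 UMIs in PD100 (16.4 CPM) and 218 in PD800 (84.5 CPM), a relative log2 ratio of 2.70 (2.15 to 3.31). In cells with 2 to 5% mitochondrial UMIs it was 0.86, under 2-fold. Lrp6, the co-receptor of Wnt ligands, had 15 and 54 UMIs (8.21 and 20.9 CPM) and a relative log2 ratio of 1.69 (0.84 to 2.62). Fgfr1op2, a partner of the STRIPAK phosphatase complex, had 118 and 322 UMIs and a relative log2 ratio of 1.29 (0.98 to 1.61). These 3 were the members of the group at least 2-fold higher, of 7 with 50 or more UMIs, against 13.9% of all tested genes. Cdkn1b, the cyclin-dependent kinase inhibitor p27, had 19 UMIs in PD100 (10.4 CPM) and 31 in PD800 (12.0 CPM). Its interval included 0 (0.55, -0.32 to 1.45). The orphan receptor Gpr19, the actin regulator Eps8 and the kinase Stk38l had from 25 to 40 UMIs in PD100 and from 35 to 49 in PD800, and the intervals of all 3 included 0. The phosphatase Dusp16 had 13 and 16 UMIs, the calcium channel Itpr2 11 and 14, the receptor Gprc5a 4 and 11, and Rassf8 5 and 3.

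The 5 RNA-related members all had 50 or more UMIs and relative log2 ratios between 0.37 and 1.20. Their SD over the genes was 0.33, against 0.88 over the 37 members. With 5 genes this spread cannot be read as a trait of the role. The RNA helicase Ddx47 had 199 UMIs in PD100 (109 CPM) and 286 in PD800 (111 CPM), a relative log2 ratio of 0.37 (0.10 to 0.63). Wbp11, a splicing factor, and Strap, an assembly factor of the SMN complex, were at 0.77 (0.54 to 1.01) and 0.85 (0.61 to 1.09). Recql, a DNA helicase, was at 1.20 (0.69 to 1.73) and Caprin2 at 0.46 (-0.018 to 0.94). Recql overlaps another tested gene, Pyroxd1, which had 36 and 72 UMIs. Tm7sf3 and Med21, Casc1 and Lrmp, Far2 and Ergic2, and Lyrm5 and a tested neighbour overlap likewise. Whether the counting used strand is not given in the sources used here, so the reads of such pairs may not be fully separate.

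Among the 8 members of membrane traffic and transport, all with 50 or more UMIs, 5 were at least 2-fold higher, against 13.9% of all tested genes. Dennd5b, a regulator of Rab GTPases, had 217 UMIs in PD100 (119 CPM) and 2658 in PD800 (1030 CPM). Its relative log2 ratio was 3.46 (3.26 to 3.66), 11-fold, and it had more UMIs over both libraries together than every member but Ldhb. Ergic2, a protein that cycles between the endoplasmic reticulum and the Golgi, had 112 and 433 UMIs (61.3 and 168 CPM) and a relative log2 ratio of 1.79 (1.49 to 2.11). Bicd1, an adaptor of the dynein motor, had 74 and 235 UMIs (40.5 and 91.1 CPM) and a relative log2 ratio of 1.51 (1.13 to 1.91). Tm7sf3, a membrane protein that shares bases with Med21 at its start, was at 1.22 (0.75 to 1.70), and Ccdc91, a Golgi trafficking protein, at 1.16 (0.30 to 2.10). Lower in the group were the importin Ipo8, at 0.64, Lrmp, at 0.45, and Golt1b, at 0.35 with 147 and 209 UMIs. Of the remaining members, Amn1 had 63 UMIs in PD100 (34.5 CPM) and 361 in PD800 (140 CPM), a relative log2 ratio of 2.36 (1.97 to 2.77). Emp1, an epithelial membrane protein, had 12 and 56 UMIs (6.57 and 21.7 CPM) and a relative log2 ratio of 2.07 (1.15 to 3.10). Ppfibp1 and Klhl42 were at 0.74 and 0.39, Mansc1 had 2 and 5 UMIs, Casc1 2 and 4, and Sspn 2 and 0, for which no ratio is given.

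**Figure D2:**
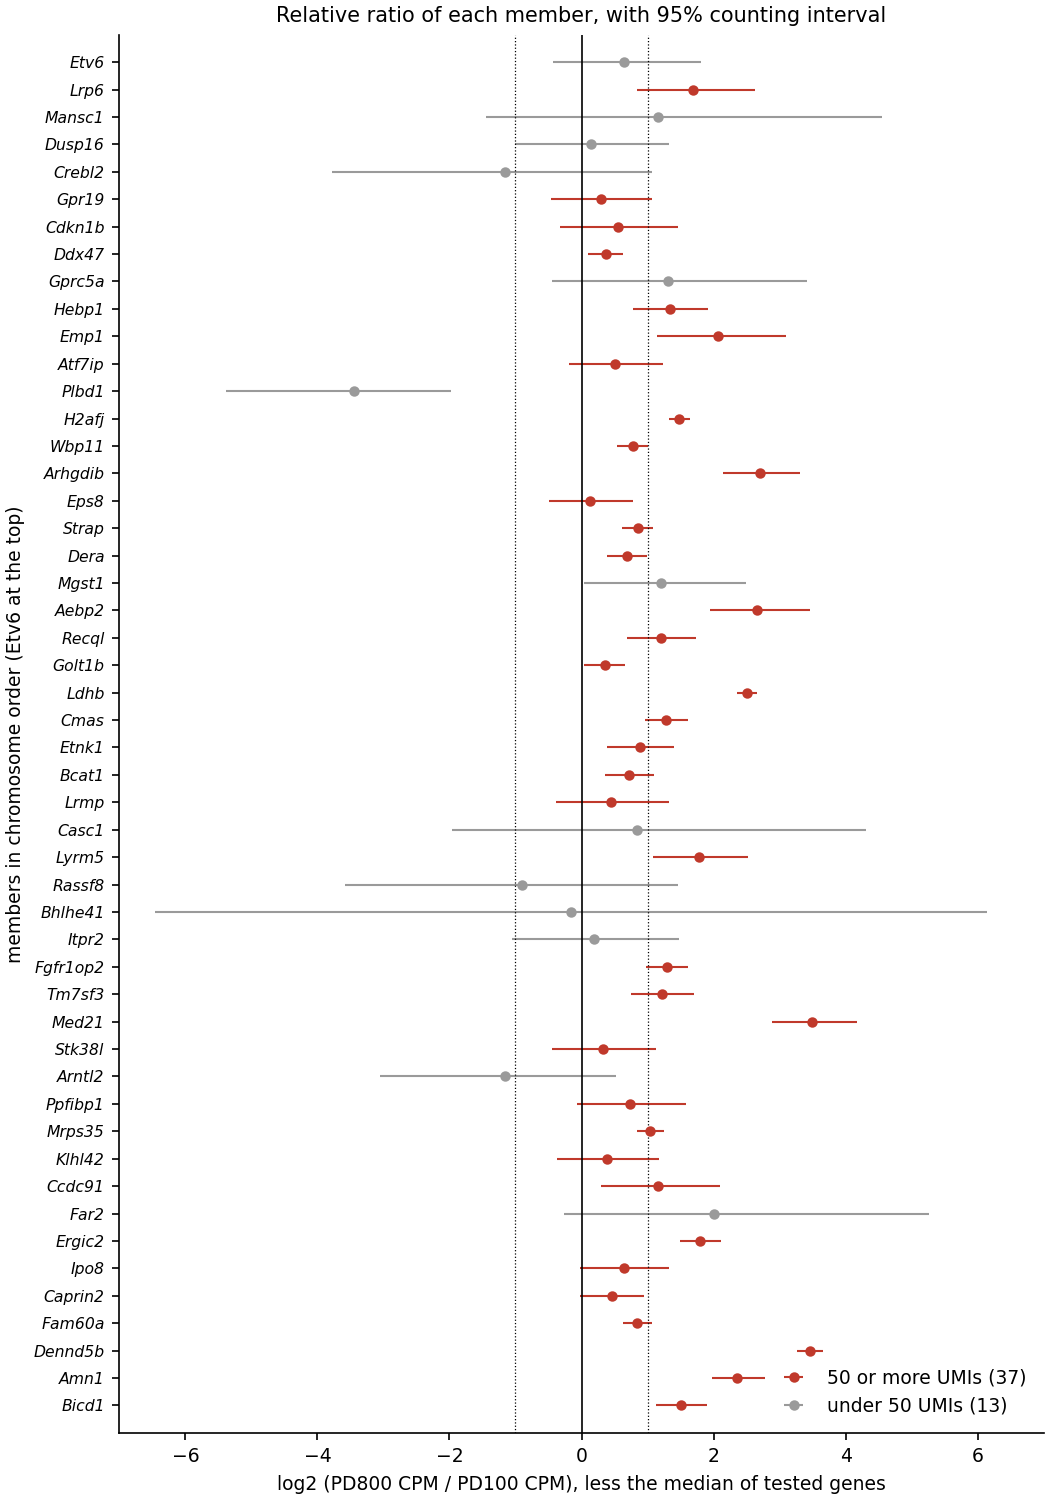
Relative log2 ratio (x axis) of 50 members in chromosome order from Etv6 at the top to Bicd1 at the bottom (y axis), each point with its 95% counting interval; red points had 50 or more UMIs and grey points fewer, and dotted lines mark 2-fold. All 37 red points lie at or above 0.14 (3 of them are lower in PD800 by plain CPM), with Med21 and Dennd5b farthest right, while grey points lie on both sides of 0 and Plbd1 is farthest left.

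The minimum of 50 UMIs also shapes the group below it. Lrp6, Emp1, Aebp2 and Med21, for example, reach 50 through their PD800 UMIs, so a lower ratio among the members that stay under it is built in and says nothing of how those genes differ from the others. Together the 14 members of fewer than 50 UMIs had 118 UMIs in PD100 and 119 in PD800, or 64.6 and 46.1 CPM. Their summed relative log2 ratio was -0.14 (-0.52 to 0.23), and without Plbd1 it was 0.38 (-0.041 to 0.82). The 3 members with the most PD800 UMIs, Dennd5b, Ldhb and H2afj, held 27.3% of the member UMIs of PD100 and 50.2% of those of PD800. The other 48 members still had a summed 1529 CPM in PD100 and 2528 CPM in PD800, a relative log2 ratio of 1.07 (1.00 to 1.13).

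The members were next placed in order along the chromosome, in 3 runs of 17. In the run nearest the centromere, Etv6 to Eps8, the 11 members of 50 or more UMIs had a median relative log2 ratio of 0.77 and a range from 0.14 to 2.70. In the middle run, Strap to Itpr2, 11 members had a median of 0.89 and a range from 0.35 to 2.66. In the last run, Fgfr1op2 to Bicd1, 15 members had a median of 1.16 and a range from 0.33 to 3.49. All 3 carriers of the repeat described further on lie in this last run: Dennd5b at 3.46, Amn1 at 2.36 and Bicd1 at 1.51. The medians of the runs were not recomputed without them. The ranges overlapped almost wholly. Over the 37 members of 50 or more UMIs, the Spearman rank correlation of the ratio with gene start was 0.15. With every member that had a ratio, the medians were 0.65, 0.85 and 1.16. The order of the 3 medians was kept under most of 12 other settings, but not under all. Those that only rescale the libraries move all 3 medians alike and cannot change their order. The medians were 0.94, 0.85 and 1.10 with runs of 7 Mb, and 0.78, 1.13 and 1.07 with cells weighted equally. With the trend on GC content and length removed they were 0.91, 0.79 and 1.02. High and low members were interspersed: Med21, at 3.49, is followed by Stk38l, at 0.33, and Dennd5b, at 3.46, is preceded by Fam60a, at 0.85.

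Genes of chromosome 6 before Etv6 lay closer to the median of the tested genes. The 275 of them that were tested had a median relative log2 ratio of 0.21 with quartiles of -0.27 and 0.77, and 18.5% were at least 2-fold higher in PD800. By plain CPM their median was -0.13, below 0. In windows of 10 Mb the median ranged from -0.25 to 0.80 up to 120 Mb, was 0.58 from 120 to 130 Mb (52 genes), 0.69 from 130 to 140 Mb (17 genes) and 1.11 from 140 to 150 Mb (32 genes). In the last 2 of these windows every tested gene was above 0 on the relative scale. The 10 tested genes just before the members had a median of 0.54 with a range from -1.34 for Ccnd2 to 3.16 for Tulp3, and 8 of the 10 were above 0. The nearest of them, Ybx3, starts 2.67 Mb before Etv6 and was at 0.27 (-0.046 to 0.58). The members span 15.5 Mb, so genes just before Etv6 may also fall in the last 21 Mb for which the members were listed. The list leaves out 10 tested genes that lie among the members, all of which were above 0 on the relative scale, with a median of 0.94 and a range from 0.34 to 2.63. By plain CPM 9 of the 10 were above 0. St8sia1, a ganglioside synthase, had the highest, with 9 and 62 UMIs, and Rep15 was at 2.50 with 172 and 1084 UMIs. Tulp3 and Rep15 both carry the repeat described next.

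**Figure D3:**
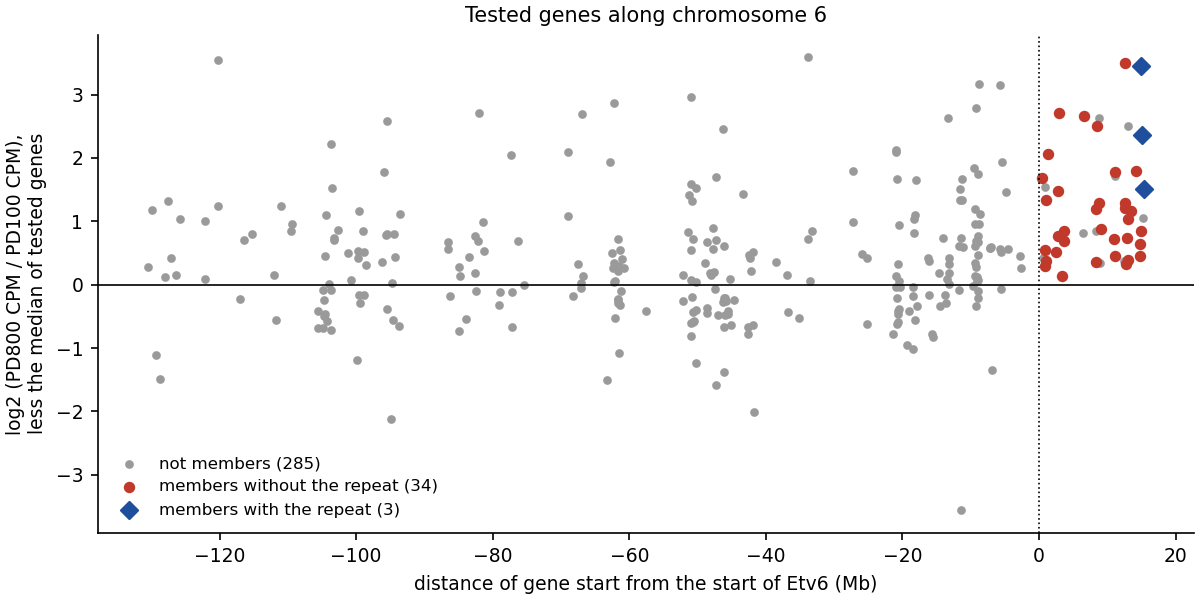
Relative log2 ratio (y axis) of each tested gene of chromosome 6 against the distance of its start from that of Etv6 in Mb (x axis); grey points are genes outside the list, red points members without the repeat and blue diamonds the 3 members with it. Points before Etv6 scatter on both sides of 0 with a median of 0.21, and the 47 tested genes after it lie above 0 on this scale.

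The members were compared with the tested genes for features that the list did not use. Median transcript GC content was 45.3% for the 37 members and 49.2% for the tested genes, and median transcript length 3671 and 2984 bases. After a linear trend of the ratio on GC content and log length had been removed, the members' median was 0.91. A short repeat was also examined. Transcripts of 389 tested genes carry in sense at least 10 of the 27 20-mers of a sequence recognised as the short interspersed element B2. These genes had a median relative log2 ratio of 1.55, against -0.034 for the tested genes without it. This repeat was picked among widespread ones because its carriers had the highest median, so a high value was built into the choice. Among the members, 3 carry it. The stretches of their transcripts that hold the most common 20-mer, in capitals, are shown because this repeat marked genes with high ratios elsewhere in the genome. The stretches of Amn1 and Bicd1 are identical, and that of Dennd5b differs from them at 1 base.
Dennd5b: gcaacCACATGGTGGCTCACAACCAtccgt
Amn1: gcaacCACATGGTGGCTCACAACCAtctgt
Bicd1: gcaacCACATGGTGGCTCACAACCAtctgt

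The 3 carriers, Dennd5b, Amn1 and Bicd1, are the last 3 members on the chromosome, with relative log2 ratios of 3.46, 2.36 and 1.51. The 34 members of 50 or more UMIs without the repeat had a median of 0.87, and 16 of them were at least 2-fold higher, as were 10.9% of the tested genes without it. Set against the tested genes without the repeat, their median was 0.90. The 48 members without it summed to 1909 CPM in PD100 and 3818 CPM in PD800, a relative log2 ratio of 1.34 (1.29 to 1.40). Med21, Ldhb, Arhgdib and Aebp2, at 2.50 to 3.49, are not among the carriers. Ergic2, at 1.79, is counted among the 34. It carries a further part, found with 20-mers of at least 150 genes and chosen on the ratios themselves. The 33 members of 50 or more UMIs without any part had a median of 0.85. The part of the repeat in the ratios of the 3 carriers was not tested.

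To examine whether the higher level was spread over the cells, each cell was thinned to 1000 UMIs and the UMIs of the 51 members were summed per cell. PD100 cells had a mean of 2.07 member UMIs (1.97 to 2.17) and a median of 2, and PD800 cells a mean of 5.15 (5.0 to 5.30) and a median of 5. The quartiles were 1 and 3 in PD100 and 3 and 7 in PD800. In PD100, 17.9% of cells (15.4% to 20.7%) had no member UMI, where a Poisson distribution of the same mean has 12.6%. In PD800 the share was 0.556% (0.181% to 1.29%) against 0.579% for the Poisson distribution. Without thinning, 5.41% of PD100 cells and 0.111% of PD800 cells had none. The distributions overlapped, since 14.8% of PD800 cells were at or below the PD100 median. The PD800 counts were broader than the Poisson distribution. At 1 and 2 UMIs they held 3.89% and 10.3% of cells, against 2.98% and 7.69%. At 11 and 12 UMIs they held 1.11% and 0.667%, against 0.983% and 0.422%. No separate low peak was seen, but at means of 2.07 and 5.15 a group of low cells need not form one. Whether PD800 held such a group was not tested.

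The variance of the summed UMIs over their mean was 1.31 in PD100 and 1.25 in PD800, where a Poisson distribution has 1. The tested genes of chromosome 6 before Etv6, summed in the same cells, had 1.45 in PD100 and 1.32 in PD800. Their means were 36.4 and 39.0 UMIs per cell, against 2.07 and 5.15 for the members. Where cells differ by the same proportion, the variance over the mean rises with the mean. These values therefore cannot be set directly against each other, between the sets or between the libraries. Without Dennd5b, Ldhb and H2afj, the members' mean was 1.48 in PD100 and 2.54 in PD800, with a variance over mean of 1.34 and 1.22.

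**Figure D4:**
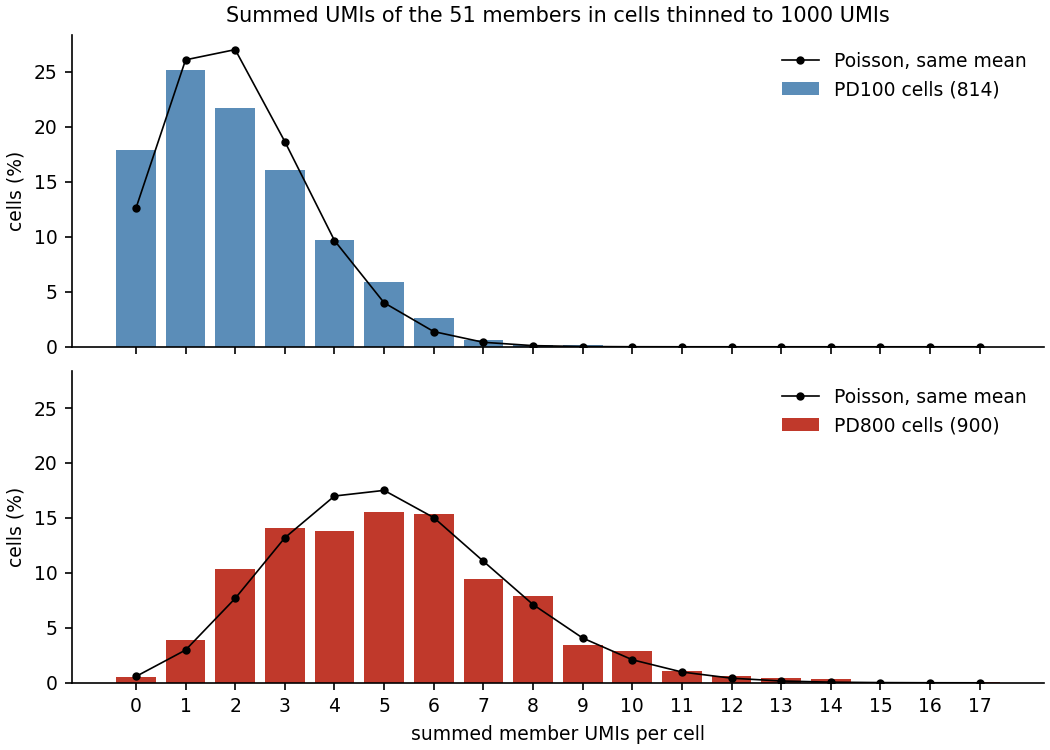
Percent of cells (y axis) by the summed UMIs of the 51 members (x axis) after thinning to 1000 UMIs per cell, for 814 PD100 cells above and 900 PD800 cells below; black dots give a Poisson distribution of the same mean. PD100 cells centre on a median of 2, with more cells at 0 than the Poisson curve has (17.9% against 12.6%), and PD800 cells on a median of 5.

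The number of cells with at least 1 UMI followed the levels. At 1000 UMIs per cell, Dennd5b was seen in 11.9% of PD100 cells (9.77% to 14.3%) and 61.7% of PD800 cells (58.4% to 64.9%). Ldhb was seen in 17.2% (14.7% to 20%) and 59.7% (56.4% to 62.9%), and H2afj in 19.7% (17% to 22.6%) and 35.7% (32.5% to 38.9%). Med21 was seen in 1.35% (0.676% to 2.41%) and 10% (8.12% to 12.1%), and Arhgdib in 1.35% and 7%. At the other end, Lrp6 was seen in 0.614% and 1.78% of cells, and Eps8 in 2.09% (1.22% to 3.32%) and 1.44% (0.771% to 2.46%), intervals that overlap. Without thinning, the PD800 shares were 84.7% for Dennd5b, 83.1% for Ldhb and 23.3% for Med21. The variance of single members over their mean in PD800 was 1.91 for Ccdc91, 1.70 for Aebp2 and 1.49 for Klhl42, and lay between 0.97 and 1.33 for the others of the 37. No cell type known to lack these genes was present, so a share from free RNA in the droplets cannot be given beside them.

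**Figure D5:**
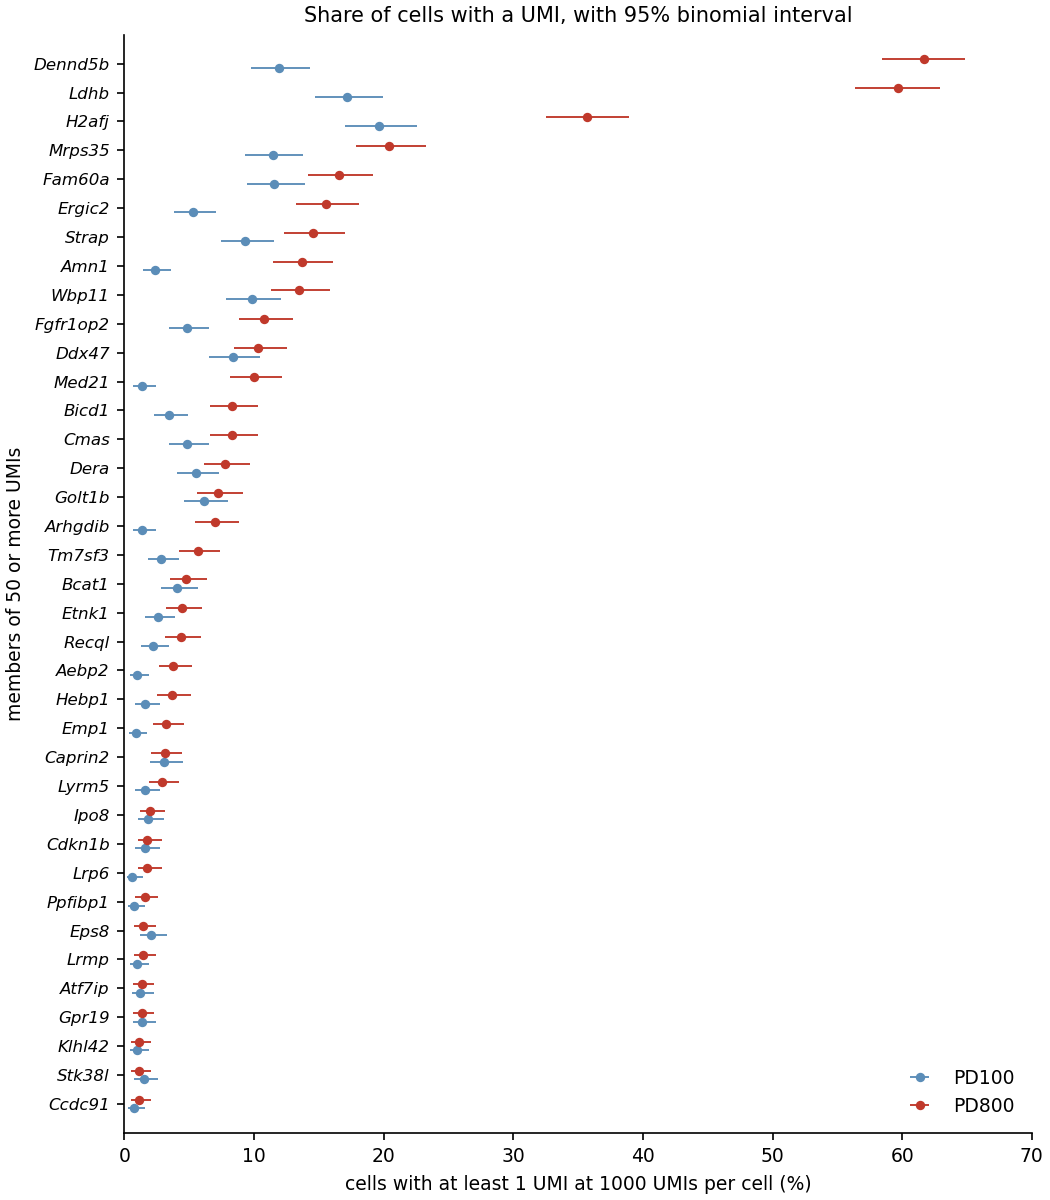
Percent of cells with at least 1 UMI at 1000 UMIs per cell (x axis) for the 37 members of 50 or more UMIs (y axis, ordered by the PD800 share), in PD100 (blue) and PD800 (red), with exact 95% binomial intervals. The shares of Dennd5b and Ldhb in PD800, 61.7% and 59.7%, stand apart from all others, and the intervals of the lowest members overlap between the libraries.

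The barcodes that the cell filter left out, 477 of PD100 and 766 of PD800, were counted as a separate view of the same 2 libraries. Their members summed to 519 UMIs (2103 CPM) in PD100 and 2216 UMIs (4834 CPM) in PD800, a relative log2 ratio of 1.45 (1.31 to 1.59). Of the 24 members with at least 20 UMIs there, 23 were above 0 on the relative scale, with a median of 1.01. That minimum is also more easily passed by a gene that is high in 1 library, such as Med21 with 2 and 59 UMIs. The count therefore describes those 24 genes and not the whole list. Ldhb had 44 and 449 UMIs and a relative log2 ratio of 2.70, and Dennd5b 30 and 430 UMIs and one of 3.19. Lyrm5 was the member below 0, with 12 and 18 UMIs and a relative log2 ratio of -0.061 (-1.20 to 1.13), against 1.78 in the cells. Tm7sf3, with 2 and 50 UMIs, was at 4.0 (2.07 to 7.08), against 1.22 in the cells.

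Depth and mitochondrial share differed between the libraries, as given above. In cells with a mitochondrial share of 2 to 5%, of which PD100 had 85 and PD800 had 581, the 37 members had a median relative log2 ratio of 0.77 and a sum at 1.5. Single members moved more in these few PD100 cells. Med21 was at 4.26, Dennd5b at 2.93 and Ldhb at 2.34, but Lrp6 at 0.42 and Emp1 at 0.34, and Cdkn1b and Atf7ip were below 0, at -0.94 and -1.60. The part of the mitochondrial share in these ratios was not tested further. Without the 33 cells rich in endoderm markers the median was 0.99 and the sum 1.60.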

How the data were processed

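Single-cell libraries of 814 PD100 and 900 PD800 cells, 1 library each, were compared, with groups taken from the labelled time points. The tables deposited by the authors hold raw counts, 1 UMI value for each barcode and gene, made with the inDrops pipeline by mapping to a transcriptome of the GRCm38/mm10 assembly. The annotation release is not given in the sources used here. The tables still held 1291 and 1666 barcodes, of 263 to 5524 and 345 to 8770 UMIs, so the filter of the study (at least 1000 UMIs, at most 20% mitochondrial) was applied, which left somewhat more cells than the study states.

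The members, gene lists and comparisons were chosen with earlier results of these data known. CPM are the UMIs of a gene summed over all cells of a library, scaled by that library's total. With 1 library per group no test was made. Sums were given 95% Poisson intervals, ratios Clopper-Pearson intervals and shares exact binomial ones, which cover counting error only. Ratios were set against the median of the 6984 genes with at least 50 UMIs. A library at 0 took a floor of 3 counts, and no ratio was given where the other was also at or under it. Members described with full values were the 10 highest and 5 lowest by the end of the interval nearer 0 (1 member had its interval below 0), the 5 with the most UMIs and 10 listed by name, and the others were given by role. Cells were thinned to 1000 UMIs without replacement (random seed 1). Scrublet called 14 PD100 and 8 PD800 cells as doublets (1.72% and 0.889%, expected rate 5%), which were kept. Positions and transcripts came from GENCODE M21 (GRCm38). Of the members 49 matched by symbol and 2 by synonym, and transcripts were matched for 99.5% of tested genes. Repeats were sought as 20-mers present in at least 300 genes and joined into families. The family of at least 100 tested carriers with the highest median ratio was used, a choice made on the ratios themselves. The scripts were tested on simulated data and used Python 3.11.15, NumPy 2.4.6, SciPy 1.17.1, pandas 2.3.3, Scanpy 1.11.5 and matplotlib 3.10.9.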

Additional observations from a re-analysis of the deposited data

How the results depend on the processing

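In total 133 alternatives were planned and 8 were added after the data had been seen. The median relative log2 ratio of the members stayed between 0.70 and 1.29 under its 16 alternatives, that of the members without the repeat between 0.53 and 1.00 under 13, and those of the 3 runs of members between 0.43 and 1.29 under 12 each. In all, 123 of 141 recomputed summaries kept their direction and moved by less than a set limit. The limit was 1.5 times for counts, 0.51 on the log2 scale for medians and the counting error otherwise. The 0.51 is of the size of a single gene's counting error and wide for a median. A move of the members' median from 1.04 to 0.70 with library totals was thus within it.

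With library totals, which leave the median of all tested genes at -0.34, the summed members were at 1.27, 12 members were at least 2-fold higher, and the genes of chromosome 6 before Etv6 turned from 0.21 to -0.13. The sum was 1.74 with median-of-ratios scaling, 1.54 against genes of 200 or more UMIs, 1.5 in cells of 2 to 5% mitochondrial UMIs, where 1 member was at least 2-fold lower, and 1.13 without Ldhb and Dennd5b (both added). With members of 200 or more UMIs alone, 11 were at least 2-fold higher, out of fewer genes. A limit of 2% mitochondrial UMIs would have left 5 PD800 cells and was not used.

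Per cell, thinning to 2000 UMIs gave means of 4.21 member UMIs in PD100 and 10.4 in PD800, with a variance over mean of 1.49 in PD100. Without thinning the means were 4.72 and 14.6 and the variance over mean 2.26 and 4.10. Without Ldhb, the member with the most UMIs, the means were 1.85 and 4.09. Ratios of single members were recomputed only for those described with full values, picked by ratio, by UMIs or by name, and not for the whole list. Of these 236 ratios, 211 moved by less than their counting interval, and 0 of those whose interval left out 0 changed direction. Atf7ip, whose interval held 0, was at -0.33 after thinning before summing.

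No paired analysis was possible because each group has 1 library, and no replicate could be left out. Depth limits the low members: 14 of the 51 had fewer than 50 UMIs, and the interval of Etv6, at 0.65, reached from -0.44 to 1.81.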
